A study of Mus musculus with 10 samples.

Results

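The genes described here are 31 markers of macrophages and other leukocytes, the immune cells that lie between the fibres of skeletal muscle. They were taken by name. Each gene was read from the brightest probe set annotated to its symbol alone, a probe set being the group of array probes that reports a transcript. All 31 symbols had such a probe set, of 18193 genes with one on the array. Probe sets whose log2 intensity averaged below 4 across the 10 arrays were set aside as dim, which left 26 of the 31 measured, among 10704 genes tested.

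RNA of gastrocnemius, a calf muscle, was profiled in 10 male mice of 7.5 months on a C57BL/6 background, 1 array each. The comparison asks how muscle transcripts differ once myostatin, a secreted inhibitor of muscle growth, has been deleted after development. Control mice (WT_Mstn, n = 5) had normal myostatin genes and knockout mice (Floxed_Mstn, n = 5) had floxed ones, which Cre recombinase can delete. Both groups carried the CAGG-CreER transgene, and both received 8 tamoxifen injections from 4 months of age. The promoter of that transgene is active in most tissues, so the deletion was not aimed at muscle fibres alone and leukocytes could carry it too. No probe set carries the name Mstn in the annotation used, so the genotype labels were not checked against the transcript.

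Macrophages of resting muscle sit in the connective tissue around fibres and vessels, clear debris and take part in repair after injury. They depend on the receptor Csf1r for survival, secrete the complement protein C1q, and carry scavenger receptors such as Mrc1 and Cd163. Macrophages, dendritic cells and B cells present peptides on MHC class II molecules, while markers such as Ptprc (CD45) and Coro1a are shared by nearly all leukocytes. In RNA of a whole muscle, fewer cells of a type and less RNA per cell cannot be told apart.

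Promoter sequence is shown for 6 members given array by array further on, 2 of them MHC class II genes and 4 macrophage or leukocyte genes. Of the 31 members, 22 had an entry in the RefSeq promoter table (GRCm38.p6), and the 200 bases before the start of transcription were read from it, 5′ to 3′ on the strand of the gene. The first pair shows the arrangement known from MHC class II genes, an X box followed by a Y box, through which the coactivator Ciita acts. Capitals mark GCAAC, the letters searched for the X box, and TGATTGG, those searched for the Y box, on either strand.

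H2-Aa, chr17:34287824-34288023, minus strand: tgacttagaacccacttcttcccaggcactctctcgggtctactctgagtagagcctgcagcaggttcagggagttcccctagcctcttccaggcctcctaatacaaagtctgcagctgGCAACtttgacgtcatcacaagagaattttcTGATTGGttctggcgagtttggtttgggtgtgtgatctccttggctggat
H2-Eb1, chr17:34305667-34305866, plus strand: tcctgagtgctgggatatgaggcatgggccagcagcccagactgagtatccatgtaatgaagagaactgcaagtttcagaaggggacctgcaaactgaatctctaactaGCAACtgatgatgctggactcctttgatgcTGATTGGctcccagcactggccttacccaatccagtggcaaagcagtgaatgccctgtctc

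In H2-Aa the X box letters began 81 bases and the Y box letters 50 bases before the start, and in H2-Eb1 they began 91 and 61 bases before it. The Y box letters stood in this window in 3 of the 22 members (H2-Aa, H2-Eb1 and Cd68), against 7.63% of the 27025 genes and 6.57% of the 32851 promoters of the table. The X box letters were in 6 of the 22, against 28.1% of all genes and 25.2% of all promoters. The next 4 sequences are members given array by array whose window holds GAGGAA (capitals, or its reverse complement TTCCTC), letters recognised by PU.1, the transcription factor that directs macrophage development.

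C1qb, chr4:136886201-136886400, minus strand: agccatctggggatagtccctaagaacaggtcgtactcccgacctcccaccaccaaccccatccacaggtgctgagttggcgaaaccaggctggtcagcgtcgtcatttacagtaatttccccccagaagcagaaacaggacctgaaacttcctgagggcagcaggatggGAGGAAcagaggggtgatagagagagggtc
C1qc, chr4:136892915-136893114, minus strand: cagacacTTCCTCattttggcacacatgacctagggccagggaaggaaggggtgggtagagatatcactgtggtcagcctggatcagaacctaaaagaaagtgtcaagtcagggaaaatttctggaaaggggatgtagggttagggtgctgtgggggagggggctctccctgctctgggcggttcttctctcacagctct
Laptm5, chr4:130913116-130913315, plus strand: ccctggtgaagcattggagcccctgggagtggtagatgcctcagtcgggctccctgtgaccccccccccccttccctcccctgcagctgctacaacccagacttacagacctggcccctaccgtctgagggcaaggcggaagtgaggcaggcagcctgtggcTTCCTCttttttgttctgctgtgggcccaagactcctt
Ctss, chr3:95526586-95526785, plus strand: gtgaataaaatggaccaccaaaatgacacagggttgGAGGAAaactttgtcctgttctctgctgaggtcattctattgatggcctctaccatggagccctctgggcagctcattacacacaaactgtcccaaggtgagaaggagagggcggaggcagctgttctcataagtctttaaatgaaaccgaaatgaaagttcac

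GAGGAA was present on either strand in 9 of the 22 members, against 21.3% of all genes and 19.0% of all promoters. In C1qb it began 30 bases and in Laptm5 38 bases before the start, and in Ctss and C1qc it lay 164 and 193 bases before it. These matches describe letters only. The RNA of the PU.1 gene itself, Spi1, was read as below the filter level on all arrays (highest value 3.22).

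In these muscles 25 of the 26 measured members had a lower mean in knockouts, but no member passed the test across all probe sets. The median difference was -0.33 on the log2 scale, a level 1.25 times higher in controls, and the members ranged from -0.65 (Ly86 and Folr2) to 0.15 (Cd52). Over all 10704 genes tested the median was 0 and 51.5% of genes had a lower value, as did 50.8% of all 21154 probe sets tested. None of the 26 passed limma's test (Benjamini-Hochberg adjustment across every probe set tested, threshold 0.05), where 0.0993% of probe sets passed in either direction and 0.0473% as lower. The lowest adjusted p among members was 0.675 (Csf1r). None had an unadjusted p under 0.05, against 7.69% of all probe sets, and none had groups that did not overlap, against 2.06% in either direction and 0.893% with lower knockouts.

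The 95% interval of every measured member included 0. For 18 of the 26 it stopped short of a level 2 times lower in knockouts, and for all 26 short of a level 2 times higher. The spread within groups (pooled SD) ran from 0.28 for Lcp1 to 0.82 for Adgre1, and the difference between groups was larger than it in 5 members, namely Csf1r, Fcer1g, Laptm5, Ly86 and C1qb. The range over the 5 control mice alone was wider than the difference between groups in all 26, a count not made over all probe sets. A range of 5 values is always wider than their SD, so this count says little about these genes.

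**Figure D1:**
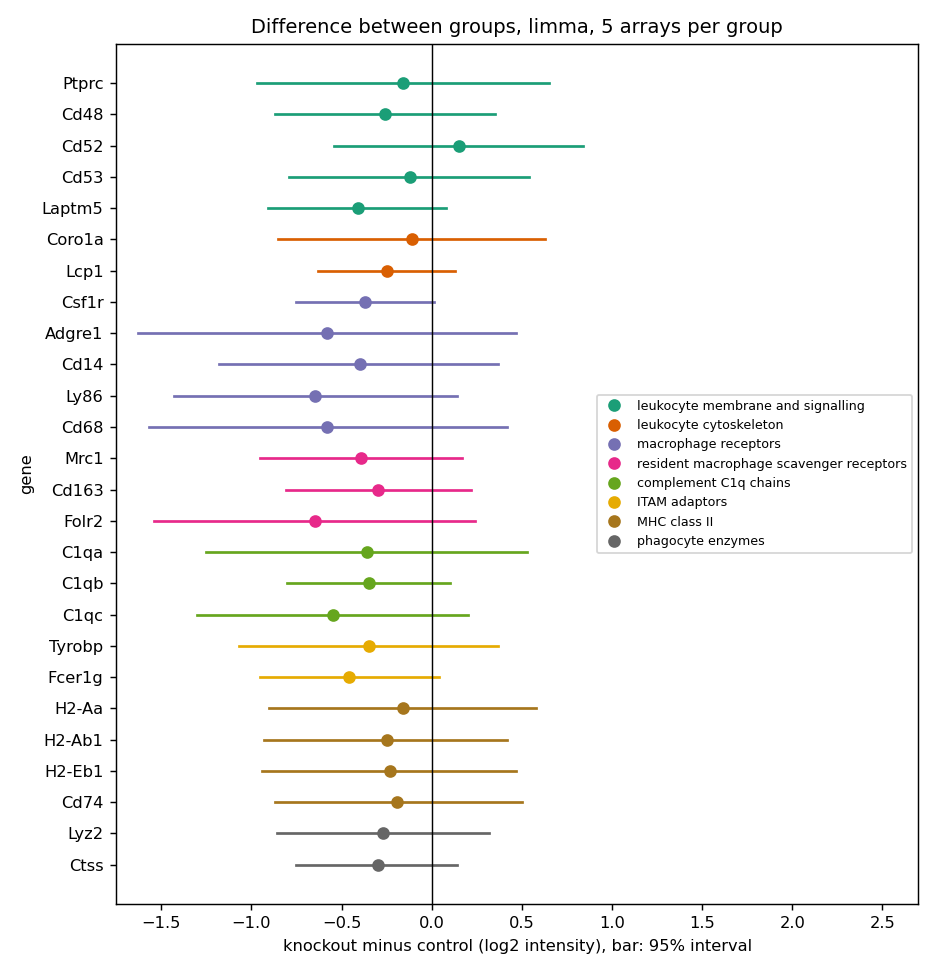
Difference between knockout and control (x axis, log2 intensity) for the 26 measured genes (y axis), coloured by role. Points are limma estimates and bars 95% intervals, with 5 arrays per group. Of the 26 points 25 lie left of 0, and every bar includes 0.

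In the median over members, the spread between mice of 1 group was wider than the difference between groups. Taking each member's deviation from its own mean over the 10 arrays, the median over the 26 members was 0.38, -0.24, 0.21, -0.17 and 0.57 in controls 1 to 5. It was 0.12, -0.51, -0.86, 0.12 and 0.36 in knockouts 1 to 5. The group means were 0.15 ± 0.35 and -0.15 ± 0.51 (SD, n = 5 each). Controls 1 and 5 lay above the mean in every member, while knockout 3 lay below it in all 26 and knockout 2 in 25. Knockout 3 held the lowest of the 10 values in 22 members, and control 5 the highest in 13. Knockouts 1, 4 and 5 lay within the range of the controls.

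**Figure D2:**
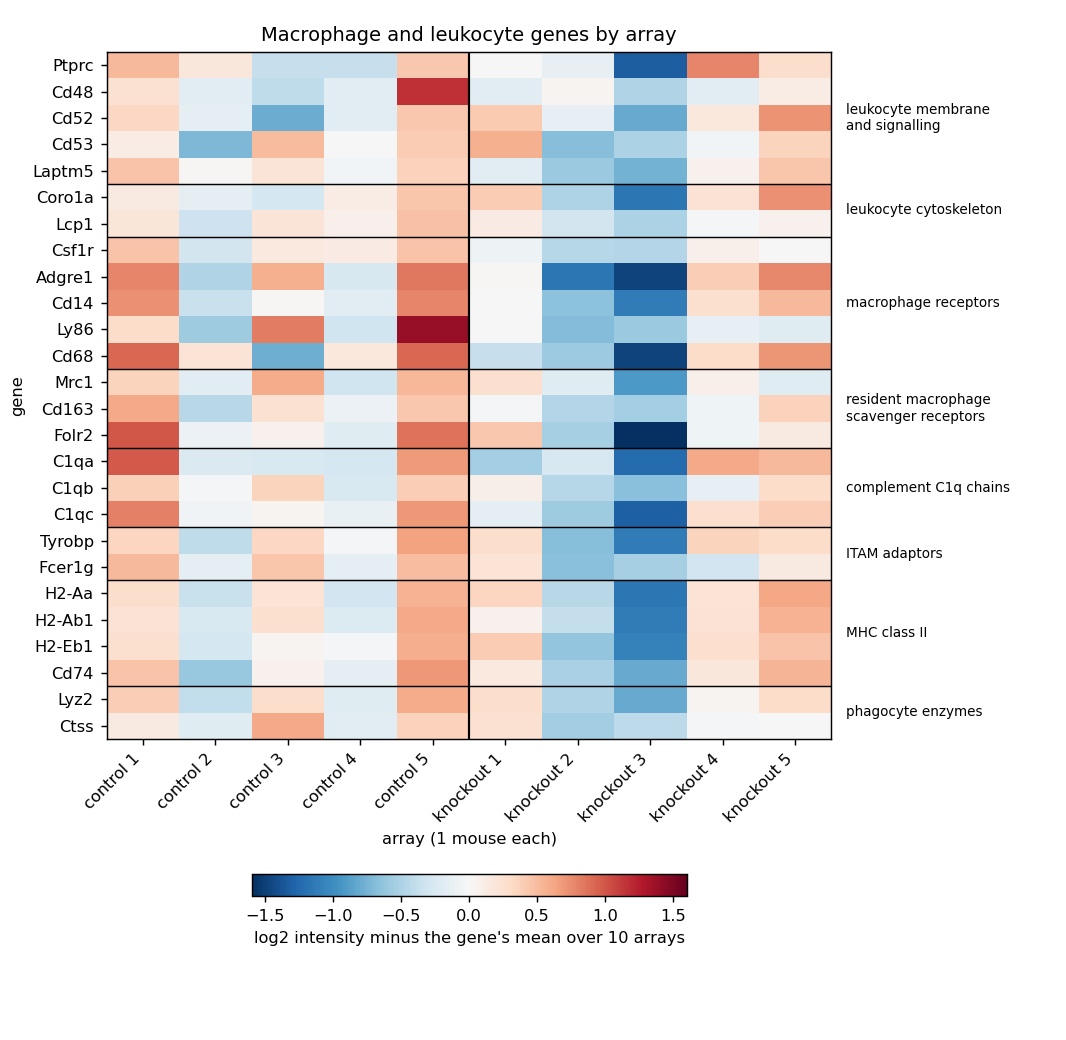
Each row is 1 of the 26 measured genes, grouped by role, and each column 1 array. Colour gives the log2 intensity minus the mean of that gene over the 10 arrays. The column of knockout 3 is blue in all 26 genes and knockout 2 in 25, while controls 1 and 5 are red throughout.

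Without knockout 3 the median over members was -0.17, with 21 of 26 lower, and the MHC class II genes and the pan-leukocyte genes centred on 0. Knockout 3 also had the highest hybridisation controls, bacterial and phage sequences added in fixed amount to each array, with a mean log2 of 13.73. Without the 3 arrays on which these controls were highest (control 3, knockout 1 and knockout 3) the median over members was -0.19 and 20 of 26 were lower. With the controls' level as a covariate in the fit the median was -0.29 and 25 of 26 were lower. In none of these did a member pass (limma). On knockout 3 (13.73) 26 members lay below their own mean. The hybridisation controls were lowest on knockout 5 (13.28) and control 1 (13.37), with 2 and 0 such members. Control 3 (13.67) and knockout 1 (13.68) had 6 and 9 such members, and knockout 2 (13.46) had 25. Control 2 (13.46), control 4 (13.51), control 5 (13.47) and knockout 4 (13.5) had 23, 22, 0 and 9. Over all probe sets tested, 68.2% lay below their own mean on knockout 3, 65.8% on control 3 and 41.7% on knockout 2. The part of array quality in the members' values was not tested further.

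**Figure D3:**
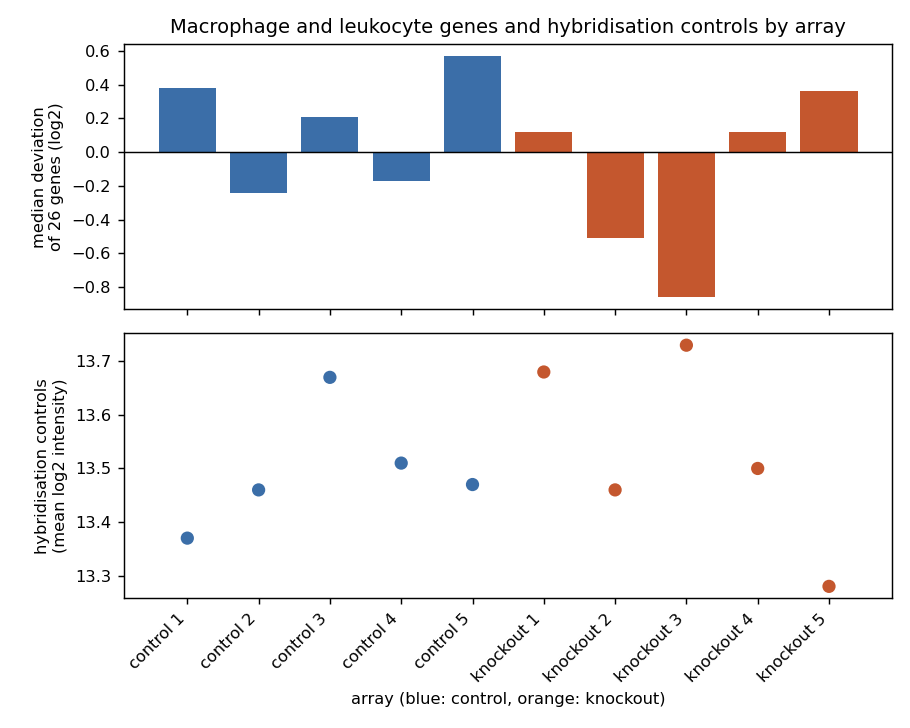
Upper panel, for each array, the median over the 26 genes of the deviation from each gene's own mean (log2, bars from 0). Lower panel, the mean log2 intensity of 4 hybridisation control probe sets on the same arrays. Knockout 3 is lowest above (-0.86) and highest below (13.73), and knockout 5 is lowest below (13.28) with 0.36 above. Knockout 2 is low above (-0.51) with controls of 13.46.

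Among macrophage receptors all 5 measured members had lower means in knockouts, with a median of -0.58 (-0.29 without knockout 3), and none passed. Csf1r, the receptor for the growth factors Csf1 and Il34, read 11.46, 10.71, 11.17, 11.14 and 11.47 in controls 1 to 5 and 10.93, 10.55, 10.54, 11.09 and 11.02 in knockouts 1 to 5 (log2 intensity). All knockouts lay below 4 of the controls, and control 2 lay among them. The Csf1r means were 11.19 ± 0.31 and 10.83 ± 0.26 (SD, n = 5), a difference of -0.37 ± 0.17 (SE, interval -0.75 to 0.01, limma adjusted p = 0.675). The other Csf1r probe sets gave -0.35 and -0.20. Without control 2 the Csf1r groups did not overlap.

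Ly86 (MD-1), which pairs with a Toll-like receptor homologue on B cells and macrophages, read 7.15, 6.29, 7.67, 6.54 and 8.25 in controls and 6.86, 6.16, 6.26, 6.73 and 6.66 in knockouts. The knockouts were close together and 3 controls lay above all of them. The difference was -0.65 ± 0.35 (SE, interval -1.43 to 0.14, limma adjusted p = 0.743).

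Adgre1 encodes an adhesion receptor that is the classical surface antigen of mouse macrophages. It read 6.24, 4.98, 6.03, 5.21 and 6.31 in controls and 5.48, 4.31, 3.98, 5.85 and 6.23 in knockouts. Knockouts 2 and 3 lay below every control, while knockouts 4 and 5 lay with the higher controls, and the difference of -0.58 ± 0.47 (SE) had the widest interval of the members (-1.63 to 0.47) and was -0.29 without knockout 3. Cd68, a glycoprotein of macrophage lysosomes, had -0.58 ± 0.44, and Cd14, a co-receptor for bacterial lipopolysaccharide, had -0.40 ± 0.35. Cx3cr1, the receptor for fractalkine, lay below the filter level on every array (highest value 2.58).

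The receptors typical of tissue-resident macrophages (Mrc1, Cd163 and Folr2) had lower means in 3 of 3 members, median -0.39 (-0.21 without knockout 3), with none past the threshold. Folr2, a folate receptor of resident macrophages, read 7.87, 6.78, 6.94, 6.68 and 7.74 in controls and 7.31, 6.34, 5.26, 6.81 and 7.02 in knockouts. Knockout 3 lay more than 1 log2 unit below any other array, knockout 2 lay below every control, and knockouts 1, 4 and 5 lay within the controls' range. The Folr2 difference was -0.65 ± 0.40 (SE, interval -1.54 to 0.24, limma adjusted p = 0.786), and -0.33 without knockout 3. Mrc1 (CD206), a mannose receptor, had -0.39 ± 0.25, and Cd163, the receptor for haemoglobin bound to haptoglobin, had -0.30 ± 0.23.

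The C1q chains A, B and C form the recognition protein that starts the classical complement pathway, and their genes lie next to each other in the genome. All 3 had lower means in knockouts, and none passed. C1qa read 6.26, 5.04, 5.03, 5.00 and 5.96 in controls and 4.73, 5.02, 4.05, 5.88 and 5.80 in knockouts, a difference of -0.36 ± 0.40 (SE, limma adjusted p = 0.935). C1qb read 12.82, 12.42, 12.80, 12.20 and 12.84 in controls and 12.54, 11.99, 11.77, 12.31 and 12.73 in knockouts, a difference of -0.35 ± 0.20 (SE, limma adjusted p = 0.773). C1qc read 8.29, 7.42, 7.53, 7.36 and 8.18 in controls and 7.33, 6.91, 6.17, 7.75 and 7.88 in knockouts, a difference of -0.55 ± 0.34 (SE, limma adjusted p = 0.786).

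In each chain knockout 3 was lowest, controls 1 and 5 were high, and knockouts 4 and 5 lay within the controls' range. The other C1qb probe sets gave -0.48 and -0.30. Without knockout 3 C1qa, C1qb and C1qc had -0.10, -0.22 and -0.29. Without the 3 arrays of highest hybridisation controls C1qa read 0.0036, on the other side of 0, while C1qb had -0.23 and C1qc -0.30.

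Tyrobp (DAP12) and Fcer1g pass signals from Fc and other immune receptors through ITAM motifs. Fcer1g read 8.51, 7.83, 8.43, 7.84 and 8.49 in controls and 8.21, 7.32, 7.46, 7.69 and 8.14 in knockouts. Knockouts 2, 3 and 4 lay below every control and knockouts 1 and 5 did not. The difference was -0.46 ± 0.22 (SE, interval -0.95 to 0.04, limma adjusted p = 0.698). It was -0.45 both with the hybridisation covariate and without the 3 arrays. Tyrobp had -0.35 ± 0.32, or -0.15 without those arrays.

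**Figure D4:**
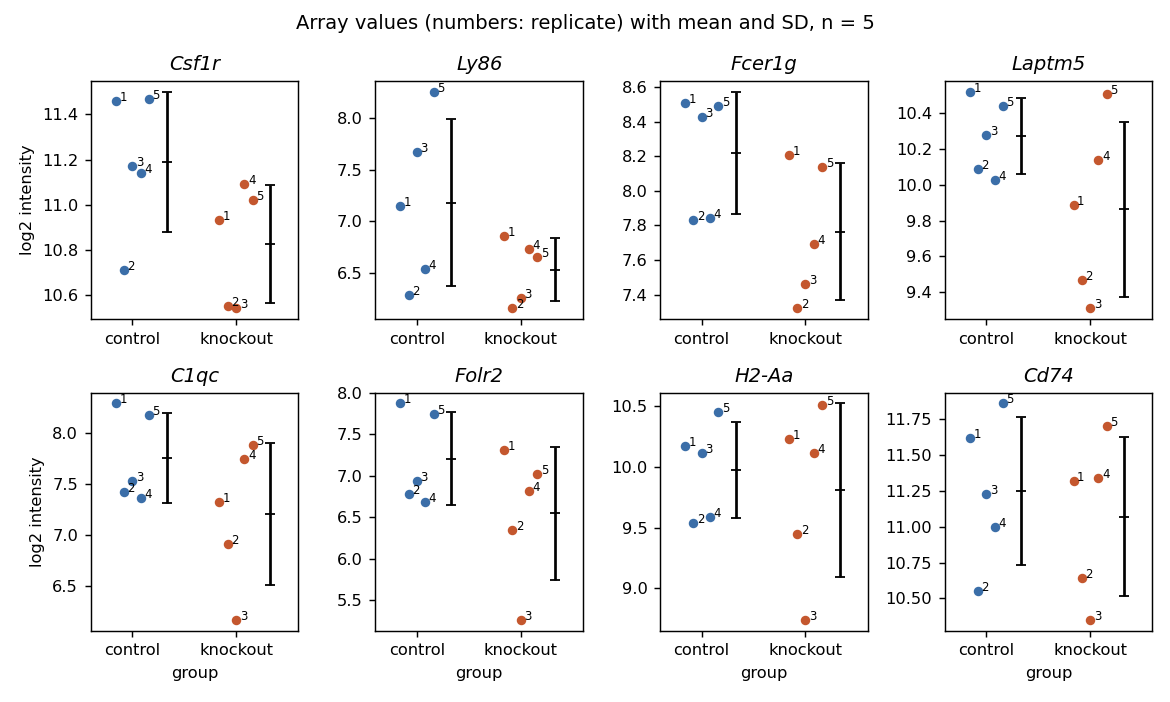
Log2 intensity (y axis, each panel on its own scale) of 8 members in control (blue) and knockout (orange) mice. Points are single arrays with their replicate number, and the bar beside them is the mean ± SD, n = 5. The groups overlap in every panel, with knockout 3 lowest or next to lowest among the knockouts.

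All 4 MHC class II members had lower means in knockouts and none passed. Their median was -0.21, which was 0 both without knockout 3 and without the 3 arrays of highest hybridisation controls. H2-Aa, the alpha chain of I-A, read 10.17, 9.54, 10.11, 9.59 and 10.45 in controls and 10.23, 9.45, 8.74, 10.11 and 10.51 in knockouts. H2-Ab1, its beta chain, read 9.32, 8.84, 9.34, 8.87 and 9.69 in controls and 9.16, 8.70, 7.97, 9.32 and 9.64 in knockouts. Both chains ranked knockout 3 lowest and knockout 5 among the highest.

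H2-Eb1, the beta chain of I-E, read 8.97, 8.44, 8.76, 8.70 and 9.30 in controls and 9.12, 8.08, 7.64, 8.98 and 9.17 in knockouts. Mice of this strain make no I-E protein at the surface because the alpha chain gene is defective, so the H2-Eb1 transcript has no functional partner. Cd74, the invariant chain that escorts class II molecules to the endosome, read 11.62, 10.55, 11.23, 11.00 and 11.86 in controls and 11.32, 10.64, 10.35, 11.34 and 11.70 in knockouts. In all 4 genes control 5 was the highest control, control 2 the lowest control, knockout 5 the highest knockout and knockout 3 the lowest, the same order at the ends. Differences were -0.16 ± 0.33 for H2-Aa, -0.25 ± 0.30 for H2-Ab1, -0.23 ± 0.31 for H2-Eb1 and -0.19 ± 0.31 for Cd74 (SE), with limma adjusted p from 0.949 to 0.980. Without knockout 3 H2-Aa and H2-Eb1 read 0.10 and 0.01.

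Of the 5 measured membrane genes shared by most leukocytes 4 had lower means, median -0.16 (-0.01 without knockout 3), with none past the threshold. Differences between role groups were not tested. Ptprc, the CD45 phosphatase that defines leukocytes, had -0.16 ± 0.36, or 0.15 without knockout 3. Cd53, a tetraspanin, had -0.12 ± 0.30 and Cd48, an adhesion ligand, -0.26 ± 0.27. The Cd48 difference rested on control 5 (5.28) and was -0.0032 without it. Cd52, a short surface glycoprotein, was the member with a higher mean in knockouts (0.15 ± 0.31), and read -0.03 without control 3.

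Laptm5, a lysosomal membrane protein of haematopoietic cells, read 10.52, 10.09, 10.28, 10.03 and 10.44 in controls and 9.89, 9.47, 9.31, 10.14 and 10.51 in knockouts. Knockouts 1, 2 and 3 lay below every control and knockouts 4 and 5 within them. The difference was -0.41 ± 0.22 (SE, limma adjusted p = 0.737), but other Laptm5 probe sets gave -0.07 and 0.24, so the probe sets of this gene disagree in direction. The integrin subunits Itgb2 and Itgam (CD11b), which pair on myeloid cells, lay below the filter level on every array, with highest values of 3.94 and 2.48.

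Of the actin-binding proteins of leukocytes, Lcp1 (L-plastin) read 8.84, 8.31, 8.85, 8.73 and 9.12 in controls and 8.78, 8.35, 8.14, 8.62 and 8.71 in knockouts. Its groups overlapped widely, with a difference of -0.25 ± 0.17 (SE, limma adjusted p = 0.825). Coro1a had -0.11 ± 0.33, and its second probe set gave 0.19. Aif1 (Iba1) lay below the filter level on every array (highest value 2.81).

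Among phagocyte enzymes Ctss, the protease that trims the invariant chain, read 10.63, 10.30, 11.10, 10.31 and 10.86 in controls and 10.73, 9.93, 10.07, 10.47 and 10.49 in knockouts. Knockouts 2 and 3 lay below every control, and the difference was -0.30 ± 0.20 (SE, limma adjusted p = 0.814). Lyz2, lysozyme M, had -0.27 ± 0.26, a value that is uncertain because transcripts of the near-identical Lyz1 could bind its probes. Cybb, the catalytic subunit of the phagocyte NADPH oxidase, lay below the filter level on every array (highest value 3.46).

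Members above and below the median level of 8.04 (13 each) had median differences of -0.27 and -0.40, with median pooled SDs of 0.43 and 0.60, so dimmer members varied more between mice. The members just inside and just outside the filter were Cd48, with a mean of 4.12, and Itgb2 and Cybb, with means near 3. Of 11 further measured probe sets of 6 members, 9 had lower means in knockouts.

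The pathways around these genes gave no call in either direction (limma, adjusted p over all probe sets). Of the complement partners 10 of 11 had lower means, median -0.36 (11 of 11 and -0.26 without knockout 3). C1ra and C1s1, the proteases that C1q activates, had -0.66 (adjusted p = 0.634) and -0.36 (adjusted p = 0.556), and Cd93, a receptor of vessel lining, -0.28 (adjusted p = 0.524). Other genes of resident macrophages were lower in 12 of 16, median -0.35 (-0.13 without knockout 3): Axl, a receptor for the clearance of dying cells, had -0.43 and F13a1, coagulation factor XIII A, -0.46. Cbr2, a carbonyl reductase, lay in the opposite direction at 0.35 ± 0.13 (SE, adjusted p = 0.571).

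Of ITAM and Fc receptor signalling genes 4 of 5 were lower, median -0.28 (3 of 5 and -0.12 without knockout 3), with Inpp5d, the phosphatase SHIP1, at -0.52, the inhibitory receptor Sirpa at -0.28 and the Fc receptor Fcgr3 at -0.30. Of NADPH oxidase partners only Cyba, the subunit that pairs with Cybb, was measured (-0.55 ± 0.26 SE, adjusted p = 0.675, and -0.35 without knockout 3).

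MHC class II regulators and partners were lower in 5 of 10 members, median 0, with the thiol reductase Ifi30 at -0.27 and H2-DMb2, which helps load peptides, at 0.51. MHC class I genes were lower in 6 of 9, median -0.09 (4 of 9 and 0 without knockout 3), where Tapbp (tapasin) had -0.18 with groups that did not overlap (adjusted p = 0.593). Macrophage transcription factors were lower in 4 of 8, median 0, and lysosomal proteases and hydrolases in 8 of 11, median -0.05 (7 of 11 and -0.02 without knockout 3). Of the CSF axis 3 of 3 were lower (1 of 3 without knockout 3), with Csf1 at -0.10 ± 0.45, while Il34 lay below the filter level. Chemokines and their receptors were lower in 5 of 10, median 0, where Cxcl12 had the lowest p (-0.34 ± 0.09, adjusted p = 0.362) and its groups did not overlap. Cytokines and activation markers were lower in 2 of 3 measured members, median -0.28 (-0.20 without knockout 3), namely Il18 (-0.50), Gpnmb (-0.28) and Retnla (0.35).

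**Figure D5:**
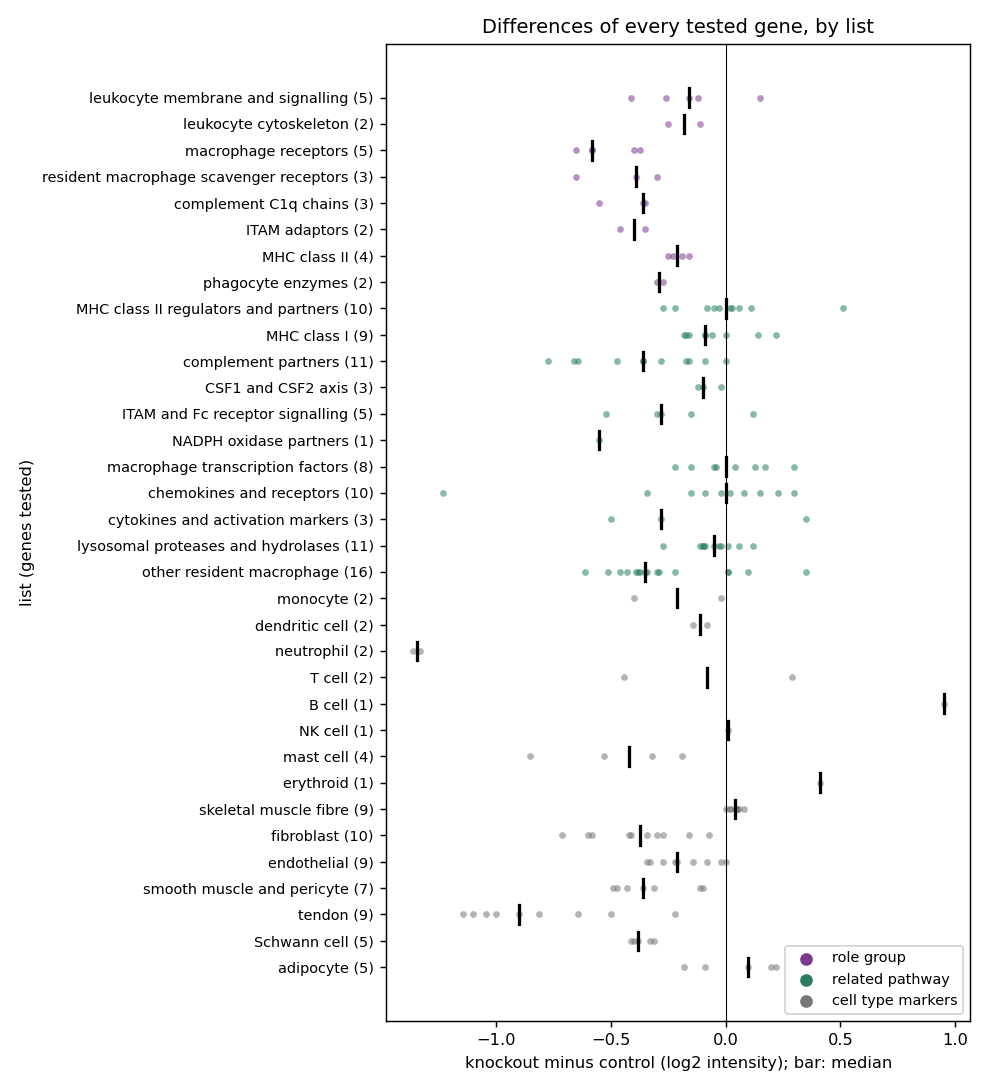
Knockout minus control (x axis, log2 intensity) for each tested gene (points) of the 8 role groups, 11 related pathways and 15 cell type marker lists (y axis, number of genes tested in brackets), with the median of each list as a black bar. No point passed the threshold. Medians are below 0 in all 8 role groups and in the fibroblast, tendon, smooth muscle, endothelial and Schwann cell lists. They are also below 0 in the neutrophil, mast cell, monocyte, dendritic cell and T cell lists and in most related pathways. The B cell, NK cell, erythroid, adipocyte and muscle fibre medians are above 0.

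Most markers of fibroblasts, endothelial cells, smooth muscle and pericytes, tendon and Schwann cells had lower means as well, none past the threshold. Their part in the members' values was not tested. Adipocyte markers did not share this direction and are given below. Fibroblast markers had lower means in 10 of 10 genes, median -0.37, and their summed intensity was 40900 to 47700 in controls and 29600 to 39800 in knockouts. Endothelial markers had lower means in 8 of 9, median -0.21 (sums of 4180 to 4960 and 3630 to 4180), and smooth muscle and pericyte markers in 7 of 7, median -0.36 (10600 to 12200 and 9090 to 10400). Tendon markers had lower means in 9 of 9, median -0.90 (29400 to 36200 and 15500 to 30900), and Schwann cell markers in 5 of 5, median -0.38 (7110 to 11000 and 6090 to 9690). Without knockout 3 the medians were -0.30 for fibroblast, -0.18 for endothelial, -0.40 for smooth muscle, -0.71 for tendon and -0.24 for Schwann cell markers. On knockout 3 the median deviation was -0.52 for fibroblast and -0.26 for endothelial markers, against -0.86 for the macrophage and leukocyte genes.

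Skeletal muscle fibre genes had higher means in 9 of 9, none past the threshold, with a median of 0.04 and sums of 329000 to 351000 and 338000 to 358000. Adipocyte markers were lower in 2 of 5, median 0.10, or in 1 of 5 with a median of 0.34 without knockout 3. RNA degradation raises the signal of a transcript's 3′ end over its 5′ end. For Gapdh this gap came to 0.49 ± 0.03 log2 units in control and 0.45 ± 0.03 in knockout mice (SD, n = 5). For beta-actin it was larger, 1.47 ± 0.06 in control and 1.40 ± 0.05 in knockout mice.

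Lymphocyte lists were measured in part. Below the filter level on every array were Cd3d, Cd3g, Cd4, Cd8a and Cd2 of the T cell list (5 of 9 genes with a probe set), Cd79a, Cd79b, Ms4a1, Cd22 and Pax5 of the B cell list (5 of 6), and Nkg7, Ncr1, Gzma, Klrd1 and Eomes of the NK cell list (5 of 6). The same held for 5 of 7 neutrophil and 5 of 7 dendritic cell genes. Measured in the T cell list were Thy1 (-0.44 ± 0.18 SE) and Cd28 (0.29 ± 0.37). Ighm (0.95 ± 0.31) was measured for B cells and Prf1, perforin, for NK cells (0.01 ± 0.17). These lymphocyte genes had limma adjusted p from 0.480 to 0.999. Dendritic cell genes measured were Itgae (-0.14 ± 0.16) and Zbtb46 (-0.08 ± 0.10), and monocyte genes Vcan (-0.40 ± 0.15) and Ccr2 (-0.02 ± 0.18), none past the threshold. The measured neutrophil genes are given further on. Of macrophage genes outside the members, Trem2, Fcgr1, Marco, Vsig4 and Spi1 also lay below the filter level on every array.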

How the data were processed

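The deposited table holds linear intensities for 45101 probe sets on 10 arrays, made by the authors with GCRMA per the submitters' processing notes. GCRMA estimates background from the sequence of each probe, quantile-normalizes the arrays and condenses the probes of a set, and it compresses differences near the floor. The version is not given in the sources used here. Labelled cDNA was made with NuGEN kits, per the labels' protocols. The log2 of each intensity was taken, with no further normalization. Of the probe sets 34958 carried 1 symbol in the platform annotation, 932 several (never used) and 9211 none. All 31 members kept their symbol in the GRCm38.p6 gene table.

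Probe sets with a mean log2 of 4 or more, without 64 array controls, entered a linear model for all 10 arrays (R 4.3.3, limma 3.58.1 with eBayes), with two-sided p-values adjusted by Benjamini-Hochberg across 21154 probe sets. The fit was tested on simulated data with independent noise for each probe set, which does not cover genes that vary together. The series names 5 mice a group. Arrays carry no read depth, and precision is limited by their number. No pair of arrays was identical.

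Members, lists and alternatives were chosen with earlier results of these data known. Values by array are given for members of lowest p or largest difference in each role group, the MHC class II and C1q genes, Csf1r and Adgre1. In related lists up to 3 genes of lowest p were named, and genes below the filter level are named as such. The promoter motifs were chosen after the values were seen. Alternatives covered filters, normalization, variance model, weights, the replicate block, the probe set, hybridisation controls and each array left out. Plots used Python 3.11.15 and matplotlib 3.10.9.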

Additional observations from a re-analysis of the deposited data

How the results depend on the processing

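No member passed the threshold under any alternative run (limma). An unadjusted p under 0.05 was reached by at most 4 of the 26 members. Over all probe sets 21 passed, but 1 with the replicate block, 93 with the hybridisation covariate, 5 without control 3, knockout 1 and knockout 3, and 1 to 17 with any array left out. The count of 25 lower members was 5 of 6 with the second brightest probe set, where fewer members had one, and 29 of 31 with no filter. Leaving out each array gave 21 to 26 lower members, medians from -0.42 to -0.17, 0 past the threshold, and 0 to 1 with groups that did not overlap (Csf1r, without control 2). Signs changed for Coro1a with the mean of its probe sets (0.03) or the second brightest (0.19). Without the 3 arrays of highest hybridisation controls they changed for Ptprc (0.12), Coro1a (0.02), C1qa (0.0036), H2-Aa (0.09) and H2-Ab1 (0.04). With arrays left out in turn, ranges that crossed 0 were -0.38 to 0.15 for Ptprc, -0.03 to 0.37 for Cd52, -0.32 to 0.03 for Cd53 and -0.31 to 0.17 for Coro1a. They were -0.34 to 0.10 for H2-Aa and -0.38 to 0.01 for H2-Eb1. The cause was not tested. With the replicate number as a block the median was -0.33, 25 of 26 were lower and 0 passed (lowest adjusted p = 0.486, Fcer1g). Correlations between the deviations of arrays that share a number were -0.51, 0.13, 0.62, -0.20 and 0.19, so the numbers were not taken to pair mice, and the block changed no call. Quantile normalization and median centring gave medians of -0.32 and -0.31, and the median of all probe sets moved by at most 0.03 under any alternative. Signal near the floor limits Itgb2, Itgam, Aif1, Cx3cr1 and Cybb, which were not tested, and Cd48.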

Other observations

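Among genes of other leukocytes, calprotectin had lower and immunoglobulin M higher values in knockouts, and none passed limma's threshold over all probe sets. S100a8 and S100a9, which form the calprotectin of neutrophils, had -1.33 ± 0.44 and -1.36 ± 0.53 (SE, adjusted p = 0.493 and 0.576). S100a8 read 6.03, 7.15, 4.91, 5.79 and 6.42 in controls and 5.73, 4.06, 4.06, 4.67 and 5.14 in knockouts. Of the knockouts only 1 and 5 reached above the lowest control, and the pair of genes gave -1.26 in the median without knockout 3. The neutrophil granule genes Camp, Ngp, Ltf and Mmp8 lay below the filter level on every array.

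Ighm, the heavy chain of immunoglobulin M, read 8.61, 8.04, 8.19, 8.90 and 9.15 in controls and 9.75, 9.92, 8.60, 10.10 and 9.28 in knockouts. All knockouts but knockout 3 lay above every control, and the difference was 0.95 ± 0.31 (SE, adjusted p = 0.480), or 1.18 without knockout 3. The other B cell genes with a probe set, Cd79a, Cd79b, Ms4a1, Cd22 and Pax5, lay below the filter level. Mast cell genes had lower means in 4 of 4, with Cpa3 at -0.85 ± 0.43, and a median of -0.42 that was -0.08 without knockout 3. Ccl8, a chemokine of resident macrophages, had -1.23 ± 0.74 and read 2.34 in knockout 3.

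No array stood far from its group by Dixon's test in any of the 52 groups of 5 formed by the 26 members, where chance gives about 2.6.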
